A study of Mus musculus with 9 samples.

Results

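Major urinary proteins (MUPs) are small secreted lipocalins. The 10 genes described here are Mup1, Mup2, Mup3, Mup4, Mup6, Mup7, Mup8, Mup9, Mup20 and Mup21, 10 of the 16755 rows of the gene table. They were taken by gene symbol and were chosen with the 3 group means of the same table already known, so their levels and ratios below describe the members and test nothing. RNA-seq was done on liver of 9 male mice on a C57BL/6J background in 3 groups of 3. Scd2f/f;CC mice carried Scd2 with one exon between loxP sites and a Cre recombinase under the Col1a1 promoter, which is active in hepatic stellate cells (HSC) and portal fibroblasts but not in hepatocytes. They and their Scd2f/f counterparts, which had the floxed Scd2 without Cre, were injected when 2 weeks old with 10 mg/kg of the carcinogen diethylnitrosamine (DEN) and from 6 weeks were fed a lard-based liquid diet holding cholesterol and ethanol (WAD), for 4 months by the sample labels. The tissue was tumor-adjacent liver (TAL), which the labels call liver. The third group was liver of Scd2f/f mice that the labels' treatment field calls untreated, though the protocol text of these samples repeats the DEN and WAD regimen. The floxed Scd2 alleles were common to all 3 groups. Each level is the authors' mean of normalised reads for one group. No value of a single mouse was analysed and the authors' own test results were not used, so no level is given an error, no difference was tested here, and no ratio is set against the spread between the 3 mice of a group. The depth of each sample is unknown.

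MUPs are made mainly by hepatocytes, secreted into blood and filtered into urine, where their barrel-shaped fold holds small volatile pheromones and releases them slowly. Mup20 encodes darcin, a male pheromone protein that attracts females, while MUP1 has also been studied as a circulating regulator of glucose and lipid metabolism. Adult males express most Mup genes more strongly than females, because the pulsatile growth hormone secretion of males signals through STAT5 in hepatocytes. Mup4 differs from most of the family in being known chiefly from nasal and exocrine glands.

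The genes lie in one cluster on chromosome 4, and they differ widely in how alike they are. In the table, 37 rows of the family, 10 of them the genes described here, spanned chr4:59956804-62150864, a stretch of 2.19 Mb in coordinates that match GRCm38. One further row, the processed pseudogene Mup-ps22, lies at chr11:55123695-55123938. The coding sequences of Mup1, Mup2, Mup7, Mup8 and Mup9 differed from each other by 2 to 7 bases, at 98.7% to 99.6% identity over the 10 pairs. Those of Mup3, Mup4, Mup6, Mup20 and Mup21 differed by 25 to 88 bases, at 83.6% to 95.4% identity. The translated proteins ran from 65.0% to 99.1% identity over all 45 pairs of members. Each came from the longest coding sequence of its gene, with 705 bases in Mup1, Mup7, Mup8 and Mup9 but 540 in Mup2. Mup2 and Mup9 differed at 2 aligned coding bases but at 8 aligned residues. The protein range therefore depends in part on the transcripts taken. The window of 60 coding bases with the most variable positions, 26 in the 10 genes, is shown from the reference transcripts of GENCODE M21, 5′ to 3′, with capitals where a gene differs from Mup7. It starts at base 212 of the Mup7 coding sequence.
Mup7: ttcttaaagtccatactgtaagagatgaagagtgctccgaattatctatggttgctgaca
Mup8: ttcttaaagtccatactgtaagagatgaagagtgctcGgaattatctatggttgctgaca
Mup1: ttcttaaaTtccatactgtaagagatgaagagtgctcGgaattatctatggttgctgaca
Mup2: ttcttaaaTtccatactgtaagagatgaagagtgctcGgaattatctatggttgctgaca
Mup9: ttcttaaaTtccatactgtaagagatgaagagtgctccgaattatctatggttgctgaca
Mup6: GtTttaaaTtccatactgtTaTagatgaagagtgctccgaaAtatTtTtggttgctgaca
Mup4: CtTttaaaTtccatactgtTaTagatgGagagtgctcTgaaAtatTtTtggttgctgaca
Mup20: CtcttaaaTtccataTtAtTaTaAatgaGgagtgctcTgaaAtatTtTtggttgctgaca
Mup21: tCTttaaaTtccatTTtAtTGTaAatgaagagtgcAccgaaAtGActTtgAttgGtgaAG
Mup3: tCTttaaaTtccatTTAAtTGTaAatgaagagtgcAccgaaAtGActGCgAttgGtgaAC
Mup1 and Mup2 had the same 60 bases, and Mup8 and Mup9 each differed from Mup7 at 1 base. Mup20 differed at 12 bases, Mup21 at 19 and Mup3 at 21.

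This likeness bears directly on the values, because a sequencing read from a shared stretch can be assigned to any gene that holds it. Each member's longest coding transcript was divided into all its stretches of 50 bases, and those found in no transcript of another gene, on either strand, were counted as its own. The shares are given in the plot of own stretches. Mup6 had 95.7% of its stretches to itself, Mup4 87.6%, Mup3 84.4% and Mup21 80.7%. Mup20 had 49.5%, and 48.0% of its stretches also occurred in the pseudogene Mup-ps19. Only 13.1% of stretches belonged to Mup8 alone, 9.76% to Mup7, 7.44% to Mup9 and 4.54% to Mup1. Mup2 had none, at 50 bases or at 75. The levels of these last 5 genes are therefore uncertain as single genes, whereas Mup3, Mup4, Mup6 and Mup21 can mostly be told apart from their relatives.

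**Figure D1:**
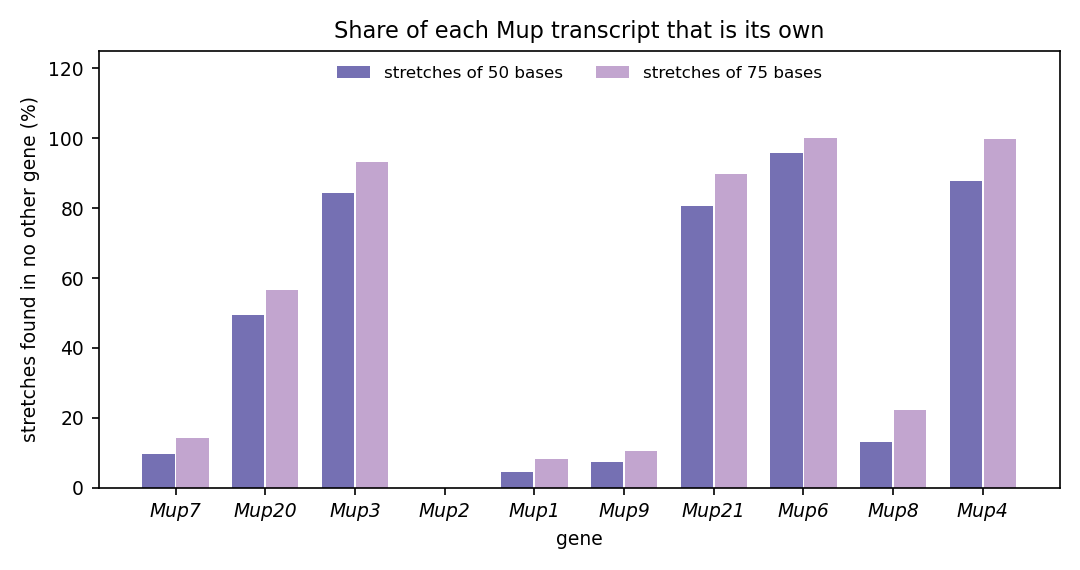
Bars give, for each of the 10 Mup genes, the percent of its transcript's stretches of 50 or 75 bases that occur in no other gene of GENCODE M21. Mup3, Mup4, Mup6 and Mup21 stand above 80%, Mup20 near the middle, and Mup1, Mup2, Mup7, Mup8 and Mup9 below 25%.

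RefSeq promoter windows on GRCm38.p6 were matched for 7 of the 10 genes, namely Mup2, Mup3, Mup4, Mup6, Mup7, Mup9 and Mup21. Of these, 6 held the TATA-box letters TATATAA in the 250 bases before the annotated start, the exception being Mup7, and the same letters on either strand occurred in 3.04% of all 32851 windows of that length. The last bases before the Mup7 start resemble bases that lie upstream of the letters in Mup3 and Mup21. Bases past the annotated starts were not searched, so whether Mup7 holds the letters there is unknown. None of the 7 held TTCNNNGAA, the spaced palindrome bound by STAT5, which occurred in 7.02% of all windows. The 100 bases before the start are shown for a near-identical pair, Mup2 and Mup9, and for a pair from the other end of the cluster, Mup3 and Mup21. All 4 are on the minus strand, written 5′ to 3′, with the TATATAA letters in capitals.
Mup2, chr4:60139857-60139956: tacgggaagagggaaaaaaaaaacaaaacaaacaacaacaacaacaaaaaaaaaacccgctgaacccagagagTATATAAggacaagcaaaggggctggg
Mup9, chr4:60421953-60422052: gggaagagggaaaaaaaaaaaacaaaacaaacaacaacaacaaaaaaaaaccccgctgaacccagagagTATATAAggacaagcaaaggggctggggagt
Mup3, chr4:62087318-62087417: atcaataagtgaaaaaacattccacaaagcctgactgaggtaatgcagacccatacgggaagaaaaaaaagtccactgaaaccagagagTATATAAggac
Mup21, chr4:62150842-62150941: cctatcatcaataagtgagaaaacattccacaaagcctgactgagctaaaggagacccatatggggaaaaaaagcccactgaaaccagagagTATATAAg
The annotated starts differed in their distance from these letters, which ended 25 bases before the start in Mup9 and 2 bases before it in Mup21.

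In untreated liver the family ranked among the most abundant transcripts. The authors' mean of Mup7 was 11000 normalised reads, the highest level of the 10 and the seventh of all genes, while albumin (Alb), the main plasma protein, stood at 21300. These means are not scaled to length, so the rank and the contrast with Alb also depend on the length of each transcript. Per kb of joined exons, Mup7 was at 10649 normalised reads, Mup20 at 9677 and Mup3 at 5515. Mup2 at 1332, Mup1 at 928 and Mup9 at 592 per kb followed, then Mup21 at 207. At the low end were Mup6 at 16.9, Mup8 at 12.7 and Mup4 at 1.64 normalised reads per kb. In Scd2f/f TAL the order of the first members was Mup20 at 7909 per kb, Mup7 at 3320 and Mup3 at 3043. In Scd2f/f;CC TAL it was again Mup7 at 7396, Mup20 at 5927 and Mup3 at 4466 per kb. Divided by coding length in place of joined exons, Mup20 at 16538 per kb stood above Mup7 at 15603 in untreated liver, and Mup3 at 5888 above Mup7 at 4865 in Scd2f/f TAL. With no spread, and with an order that depends on the length used, neighbours in these orders cannot be ranked with confidence.

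**Figure D2:**
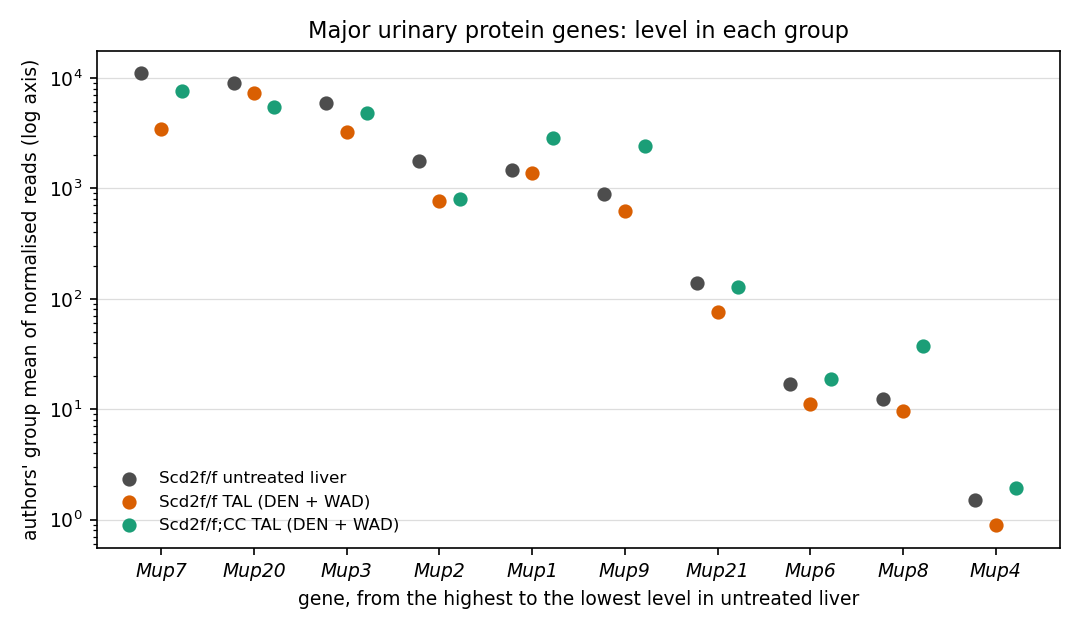
Points give the authors' group mean of normalised reads for each of the 10 Mup genes on a log axis, for untreated liver, Scd2f/f TAL and Scd2f/f;CC TAL. Levels in untreated liver run from 1.51 for Mup4 to 11000 for Mup7, and all 10 points of Scd2f/f TAL lie below those of untreated liver.

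The first comparison, of Scd2f/f TAL with untreated liver, asks what the DEN and WAD regimen did. All 10 Mup means were lower in TAL, with a median log2 ratio of -0.68, against 0.03 over the 11797 genes whose mean over both groups reached 1. Mup7 and Mup2 were lower by at least 2-fold. That is 2 of 10 members, beside 3.02% of all genes, and none was higher by 2-fold, beside 6.38%. With groups scaled to equal totals, 1 member, Mup7, passed 2-fold, and Mup2 was at a log2 ratio of -0.90. Since the genes were chosen with these means known, nothing is read from these counts. Scaling each group to the same total over all genes would move every log2 ratio of this comparison up by 0.32, and Mup1 and Mup20 would then lie above 0, while scaling to the hepatocyte markers described below would do so for Mup1. The totals moved partly with 3 noncoding transcripts, CT010467.1, Rn7s1 and Rn7s2, which took 25.2% of the summed level in untreated liver, 10.8% of that of Scd2f/f TAL and 14.6% of that of Scd2f/f;CC TAL.

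The second comparison, of Scd2f/f;CC with Scd2f/f TAL, asks what changes in TAL when Scd2 is deleted in Col1a1-expressing cells. Here 9 of the 10 Mup means were higher in Scd2f/f;CC, with a median log2 ratio of 0.90 against 0.00 over 11847 genes. Mup1, Mup4, Mup7, Mup8 and Mup9 were higher by at least 2-fold, 5 of 10 members beside 0.642% of all genes. With groups scaled to equal totals or to hepatocyte markers, 2 members, Mup8 and Mup9, passed 2-fold. None was lower by 2-fold, beside 1.65% of all genes, and Mup20 was the single member with a lower mean. Scaling to equal totals would lower every log2 ratio by 0.17 and scaling to hepatocyte markers by 0.29, and Mup2 would then fall just under 0 in both. Both comparisons use the same Scd2f/f TAL mean, so a low mean there raises one ratio as it lowers the other, and the pair is no independent evidence of a loss and a return.

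**Figure D3:**
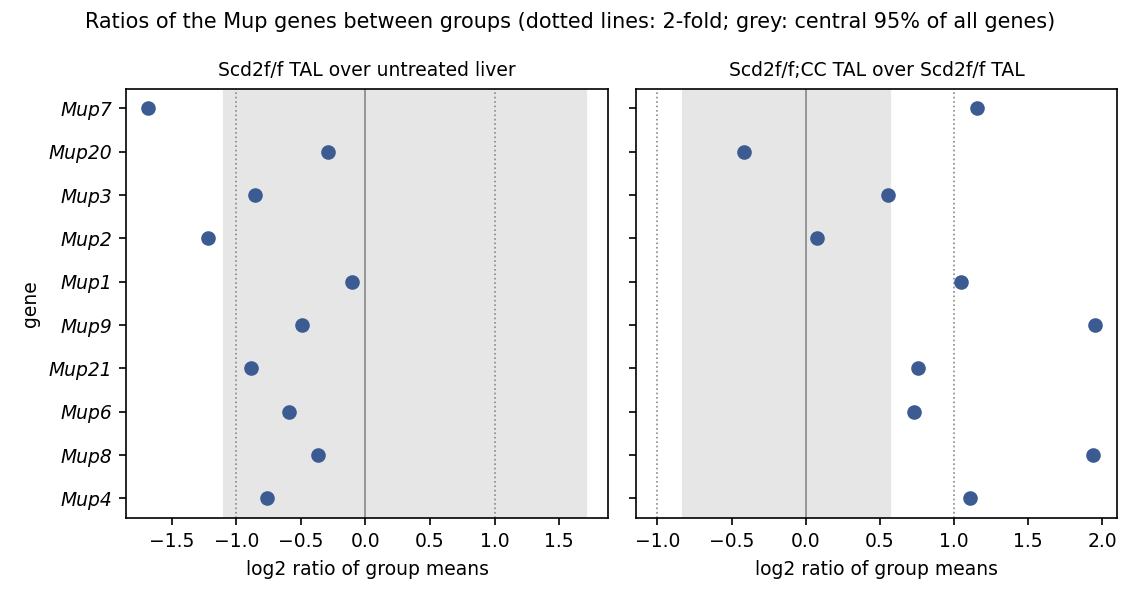
Points give the log2 ratio of group means for each Mup gene, Scd2f/f TAL over untreated liver on the left and Scd2f/f;CC TAL over Scd2f/f TAL on the right. Grey bands hold the central 95% of all genes whose mean reached 1, and dotted lines mark 2-fold. Mup7 and Mup2 lie past the band on the left, while on the right 7 genes lie above it and Mup20, Mup2 and Mup3 within it.

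Among the 5 near-identical genes, Mup7 carried the largest level. Mup7 at chr4:60066469-60070476 had a mean of 11000 in untreated liver, 3430 in Scd2f/f TAL and 7640 in TAL of Scd2f/f;CC mice. Its mean in Scd2f/f TAL was 0.312 times that of untreated liver, the lowest of the 10 ratios, and in Scd2f/f;CC it was 2.23-fold that of Scd2f/f TAL. Mup1 at chr4:60498012-60501961 stood at 1470, 1370 and 2830 in the same order. The untreated and Scd2f/f TAL means of Mup1 thus lay close together, at a ratio of 0.932, and Scd2f/f;CC TAL was higher by 2.07-fold. Mup9 at chr4:60418046-60421953 had means of 887, 630 and 2440, with the largest ratio of Scd2f/f;CC to Scd2f/f TAL among the members, 3.87. Mup8 at chr4:60218621-60222600, a far scarcer transcript, had means of 12.5, 9.70 and 37.2 and a ratio of 3.84. With 10 added to each mean, its log2 ratio between the TAL groups fell from 1.94 to 1.26. Mup8 and Mup9 were also above untreated liver in Scd2f/f;CC TAL, by 2.98- and 2.75-fold. Mup2 at chr4:60135932-60154290 behaved differently, with 1780 in untreated liver, 764 in Scd2f/f TAL and 804 in TAL of Scd2f/f;CC mice. Its level was low in both TAL groups, at 0.429 and 0.452 times untreated liver, though none of its stretches is its own.

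Among the more distinct genes, ratios of Scd2f/f TAL to untreated liver ran from 0.542 to 0.663 in Mup3, Mup4, Mup6 and Mup21. Mup3 at chr4:62083476-62087343, behind Mup7 and Mup20 per kb of joined exons in each group, had means of 5890, 3250 and 4770. Its Scd2f/f TAL mean was 0.552 times that of untreated liver, and Scd2f/f;CC TAL was 1.47-fold Scd2f/f TAL. Mup21 at chr4:62147932-62150864, its closest relative with 25 differing coding bases, had means of 140, 75.9 and 128, and ratios of 0.542 and 1.69. Mup6 at chr4:59964294-60007275, the member with the most sequence of its own, had means of 16.9, 11.2 and 18.6, and ratios of 0.663 and 1.66. Mup4 at chr4:59956804-59960711 had means of 1.51, 0.890 and 1.92. Its ratio of 2.16 between the TAL groups rests on means near 1 and shrank to a log2 ratio of 0.13 with 10 added to each mean. In all 4 genes the Scd2f/f TAL mean was the lowest of the 3.

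Mup20, the darcin gene at chr4:62050234-62054159, showed another order. Its means were 8980 in untreated liver, 7340 in Scd2f/f TAL and 5500 in TAL of Scd2f/f;CC mice. It was the only member whose lowest mean was that of Scd2f/f;CC, at 0.749 times Scd2f/f TAL and 0.612 times untreated liver. Mup-ps19 at chr4:61957149-61959912, the pseudogene that shares stretches with it, was at 161, 136 and 0.444. Its ratio of 0.0033 between the TAL groups was the lowest of the whole table. Of the 50-base stretches of Mup-ps19, 89.8% also occurred in Mup20. Adding the pseudogene to Mup20 left the ratio between TAL groups at 0.736. Whether both rows reflect how reads were divided was not tested.

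Against untreated liver, Scd2f/f;CC TAL had 5 members above and 5 below, with a median log2 ratio of 0.00. Mup8 and Mup9 were higher by at least 2-fold, beside 4.2% of 11696 genes, and Mup2 was lower by 2-fold, beside 2.66%. With equal totals, 3 members were higher by 2-fold, Mup1 joining at a log2 ratio of 1.09, and 0 were lower, Mup2 being at -0.997. Mup6 would turn below 0 with scaling to hepatocyte markers and Mup21 above 0 with equal totals.

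Because reads of shared stretches can be assigned to any gene that holds them, sums were taken as well, though the 10 members also share stretches with Mup rows outside their sum, as Mup1 does with Mup12 (78.0% of its 50-base stretches). The 10 means summed to 30178 normalised reads in untreated liver, 16882 in Scd2f/f TAL and 24170 in TAL of Scd2f/f;CC mice. The Scd2f/f TAL sum was 0.559 times that of untreated liver, and Scd2f/f;CC was 1.43-fold Scd2f/f TAL. Relative to Alb in the same group, with neither scaled to length, the sum was 1.42, 0.808 and 1.06. Alb itself was at 21300, 20900 and 22700. As a share of the level of all genes, the 10 took 3.68%, 2.56% and 3.27%, and of protein-coding genes alone, which leaves out the 3 noncoding transcripts named above, 6.14%, 3.52% and 4.67%. The makeup of the sum shifted between groups. Mup20 made up 29.8% of it in untreated liver, 43.5% in Scd2f/f TAL and 22.8% in TAL of Scd2f/f;CC mice. Mup7 made up 36.5%, 20.3% and 31.6%, and Mup9 2.94%, 3.73% and 10.1%.

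**Figure D4:**
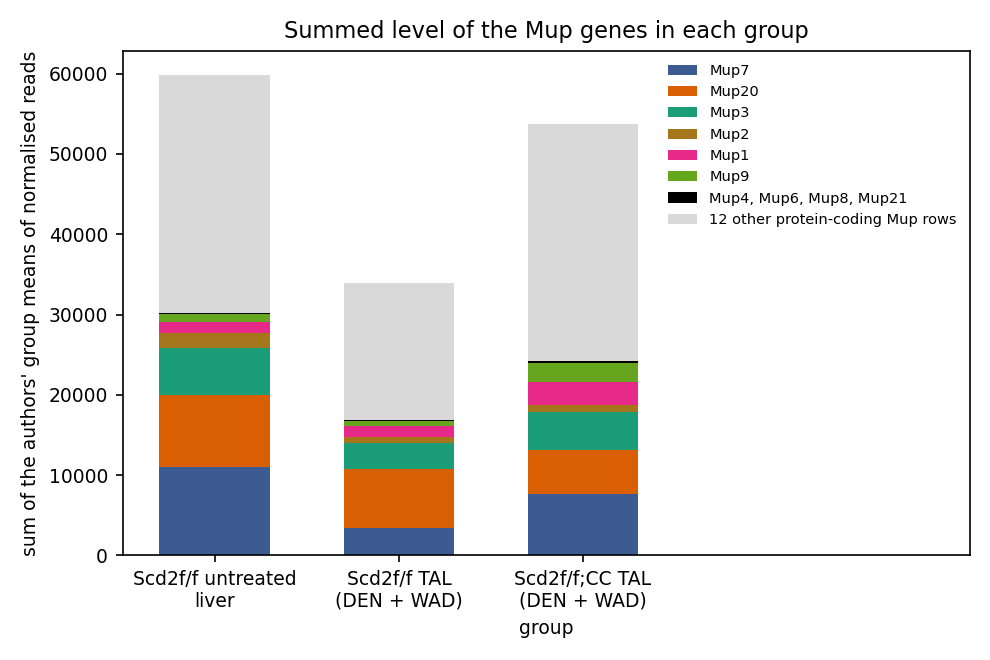
Stacked bars give the sum of the authors' group means of normalised reads over the Mup genes in each group, with the 12 other protein-coding Mup rows in grey. The 10 genes sum to 30178, 16882 and 24170 in untreated liver, Scd2f/f TAL and Scd2f/f;CC TAL.

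The remaining Mup rows were 11 protein-coding and 16 pseudogenes, taken with Gm21320, which RefSeq now names Mup22. Those that code for protein gave a similar picture. All 12 other protein-coding rows were lower in Scd2f/f TAL than in untreated liver, with ratios from 0.259 for Mup12 to 0.845 for Mup10. Mup12, Mup14, Mup16, Mup18 and Mup19 were lower by at least 2-fold, beside 3.02% of all genes. All 12 were higher in Scd2f/f;CC than in Scd2f/f TAL, and Mup12, Mup13, Mup15, Mup16, Mup17 and Mup18 were higher by at least 2-fold, beside 0.642%. The highest ratio belonged to Mup18, with means of 66.5, 18.3 and 174 and a ratio of 9.51 between the TAL groups, the fourth highest of all genes. The lowest was that of Mup14, with means of 2030, 942 and 1080. Gm21320, Mup19 and Mup15 were the most abundant of these rows, at 8410, 8020 and 3970 in untreated liver. Mup5, with 82.9% of its stretches its own, had means of 6.10, 3.96 and 7.35. Mup11 and Mup17 stood at 2660 and 2430 in untreated liver, while Mup10 at 54.2 and Mup13 at 5.23 were scarce. Of pseudogenes with a mean of at least 1, 4 of 10 were lower by 2-fold in Scd2f/f TAL than in untreated liver, beside 3.02%, and 0 higher. Between the TAL groups, 1 of 11 was higher, Mup-ps21 at 3.11, 1.93 and 4.19, and 1 lower, beside 0.642% and 1.65%. The pseudogenes summed to 199, 158 and 35.7, a ratio of 0.226 between the TAL groups. Apart from Mup-ps19, these rows had means of at most 11.4 in each group.

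All protein-coding rows of the family were then pooled by sequence. The 16 rows with under 25% of their 50-base stretches to themselves summed to 44831 in untreated liver, 23284 in Scd2f/f TAL and 43327 in TAL of Scd2f/f;CC mice. This pool was at 0.519 times untreated liver in Scd2f/f TAL, and 1.86-fold higher in Scd2f/f;CC than in Scd2f/f TAL. The other 6 rows, Mup3, Mup4, Mup5, Mup6, Mup20 and Mup21, summed to 15035, 10682 and 10426. Their sum was also lower in Scd2f/f TAL, at 0.710 times untreated liver, but the TAL groups had a ratio of 0.976. Most of that second sum is Mup20 and Mup3, whose ratios between the TAL groups lay on opposite sides of 1. The limit of 25% was chosen after the values had been seen.

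Along the chromosome, some neighbouring members had like ratios and others did not. Mup7 and Mup2, next to each other, had the members' lowest log2 ratios of Scd2f/f TAL to untreated liver, -1.68 and -1.22. Mup8 and Mup9, also successive members, had the highest between the TAL groups, 1.94 and 1.95. Mup20 and Mup3, neighbours too, were at -0.42 and 0.55 there. A pattern by place was not tested. The map of the cluster runs from Mup4 and Mup6 at one end to Mup20, Mup3 and Mup21 at the other. Of the rows inside the cluster with other names, the noncoding Gm13775 had means of 62.8, 32.0 and 55.6 and Gm13773 of 5.91, 3.05 and 4.30, while the antisense Gm12909 had 1.72, 2.54 and 2.94. Gm13775 and Gm13773 overlap the pseudogenes Mup-ps16 and Mup-ps6 on the same strand, so reads of the overlaps cannot be told apart, while Gm12909 overlaps no Mup row. Outside the cluster, Snx30, a sorting nexin gene, had means of 5.16, 6.03 and 5.49, and Inip of 2.46, 2.78 and 2.57. On the far side, Slc31a2 had means of 3.83, 3.63 and 3.87 and Fkbp15 of 16.3, 17.6 and 19.7. The other pair had means under 1 in each group, with 0.129, 0.218 and 0.119 for Gm12543 and 0.538, 0.608 and 0.526 for Zfp37. Apart from Gm12543, whose ratios of 1.69 and 0.546 rest on these low means, the neighbours had ratios from 0.865 to 1.17 in both comparisons.

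**Figure D5:**
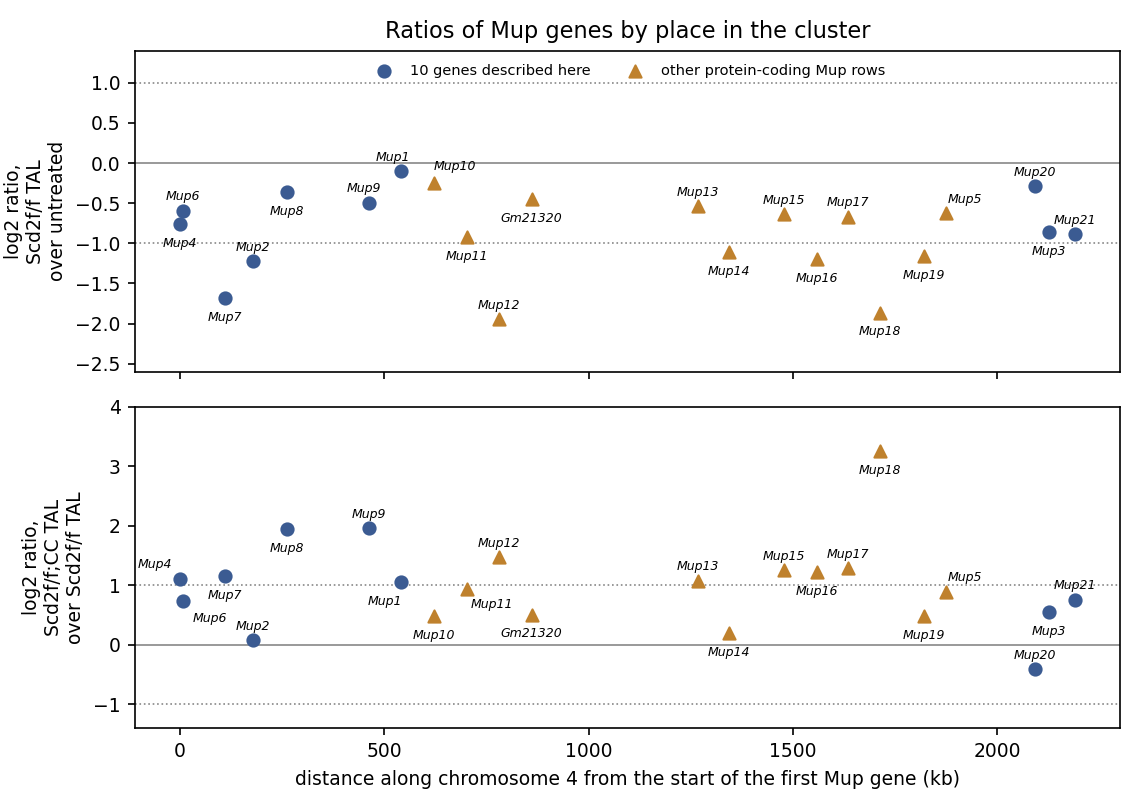
Each point is a protein-coding Mup row, placed by its distance in kb from the first Mup gene of chromosome 4. The log2 ratio of Scd2f/f TAL over untreated liver is above and that of Scd2f/f;CC over Scd2f/f TAL below, with 2-fold as dotted lines. All 22 points lie under 0 above, and Mup20 alone lies under 0 below.

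Other genes with higher expression in male than in female liver in part had their lowest mean in Scd2f/f TAL, as all members but Mup20 did. Of 24 such genes chosen from general knowledge, 23 had a mean of at least 1. Between Scd2f/f TAL and untreated liver, 5 were lower and 1 was higher by 2-fold, beside 3.02% and 6.38% of all genes, with a median log2 ratio of -0.56. Moxd1, a monooxygenase-like gene, was at 21.3 in untreated liver, 0.643 in Scd2f/f TAL and 31.9 in TAL of Scd2f/f;CC mice. Ugt2b38, a glucuronosyltransferase, was at 56.3, 6.25 and 23.0, and Hsd3b5, a steroid dehydrogenase isoform of male liver, at 128, 29.0 and 85.8. Selenbp2 and Susd4 also had their lowest means in Scd2f/f TAL, at 111 and 9.39 against 391 and 19.2 in untreated liver. Elovl3, a fatty acid elongase, went the other way, with 13.7, 34.3 and 73.2. Cyp4a12a at 110, 133 and 79.1 and Cyp4a12b at 44.5, 64.2 and 44.0 had their highest means in Scd2f/f TAL. Between the TAL groups, Moxd1, Ugt2b38, Hsd3b5 and Elovl3 were higher by 2-fold in Scd2f/f;CC and Dhrs9 was lower, at 2.07 against 4.95, with a median of 0.37. Of all genes, 0.642% were higher and 1.65% lower there. Of 24 genes with higher expression in female liver, 20 were in the table. Of the 14 that reached a mean of 1, 5 were higher and 3 lower by 2-fold in Scd2f/f TAL than in untreated liver, beside the same 6.38% and 3.02%, with a median of 0.11. Cyp2a4, a testosterone hydroxylase, was at 0.348, 32.6 and 12.6, and Cyp2b10 at 2.27, 0.346 and 0.840. Between the TAL groups, Cyp2b9 at 6.08 and 31.1, Cyp2b13, Acot3 and Prlr, the prolactin receptor gene, were higher by 2-fold in Scd2f/f;CC, and Cyp2a4 and Ntrk2 were lower, among 15 genes with a median of 0.36, beside those same shares. Against untreated liver, 7 of 16 female-biased genes were higher and 2 lower by 2-fold in Scd2f/f;CC TAL, beside 4.2% and 2.66% of all genes, with a median of 0.77, from Cyp2b10 to Cyp2b9, which was at 0.135 in untreated liver. Of the male-biased genes, 1 was higher and 3 were lower by 2-fold in that comparison, beside the same shares, with a median of -0.34.

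Of 21 genes of growth hormone signaling and of factors reported to act on Mup genes that reached a mean of 1, 1 was higher and 1 lower by 2-fold in Scd2f/f TAL than in untreated liver, counts near the 6.38% and 3.02% of all genes, and the median log2 ratio was -0.05. Bcl6, a repressor that acts at STAT5 sites and is itself higher in male liver, was at 28.2, 10.9 and 24.6. Socs3, a cytokine-induced inhibitor of receptor signaling, was at 6.44, 16.2 and 4.71. Cish, an inhibitor induced by STAT5, was at 10.8, 7.84 and 2.70, so that Bcl6 was higher and Socs3 and Cish were lower by 2-fold in Scd2f/f;CC than in Scd2f/f TAL, with a median of 0.12 for the list. These are 1 higher and 2 lower of 21, beside the 0.642% and 1.65% of all genes given above. The growth hormone receptor gene Ghr was at 274, 274 and 348. Stat5b was at 17.7, 30.6 and 34.6, and Zhx2, another gene of the list, at 12.3, 11.9 and 12.9.

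Other lipocalins and other abundant secreted proteins were not, as lists, lower in Scd2f/f TAL than in untreated liver. Of 8 other lipocalin family genes that reached a mean of 1, 3 were higher by 2-fold in Scd2f/f TAL than in untreated liver and none was lower, beside 6.38% and 3.02% of all genes, with a median log2 ratio of 0.17. Lcn2, an iron-siderophore carrier of the acute phase, was at 5.21, 41.8 and 14.1. Orm2 was at 5.83, 32.0 and 12.3 and Orm3 at 1.22, 8.05 and 6.77, both genes of the acute-phase orosomucoids. Lcn2 and Orm2 were lower by 2-fold in Scd2f/f;CC than in Scd2f/f TAL, beside 1.65% of all genes. Rbp4, the plasma carrier of retinol, was at 992, 1030 and 1160. Apom, a lipocalin of high-density lipoprotein, was at 77.1 in untreated liver and 53.4 in Scd2f/f TAL, and C8g, a chain of complement component C8, was at 139, 102 and 124. Orm1 was at 328, 253 and 226. Among 28 abundant secreted hepatocyte proteins, the median log2 ratios were 0.09 and 0.12. Serpina1e, a serine protease inhibitor gene with close relatives that can share its reads, was the 1 gene past 2-fold in either comparison, at 3990, 784 and 1590. Apoe had the highest ratio to untreated liver, at 5460, 9970 and 9340, and Gc the lowest between the TAL groups, at 2520 and 2250 there.

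Markers of cell types give the setting of these values, and their counts past 2-fold stand beside 6.38% of all genes higher and 3.02% lower in Scd2f/f TAL than in untreated liver, and 0.642% higher and 1.65% lower between the TAL groups. They matter here since in bulk liver fewer hepatocytes and less Mup RNA per hepatocyte cannot be told apart. All 20 hepatocyte markers were present, Alb the most abundant, and their summed level was 35730 in untreated liver, 34972 in Scd2f/f TAL and 39454 in TAL of Scd2f/f;CC mice. Their median log2 ratio was -0.09 in Scd2f/f TAL against untreated liver and 0.17 between the TAL groups. Tat, an enzyme of tyrosine breakdown, was lower by 2-fold in Scd2f/f TAL, at 499, 181 and 305, and G6pc, the last enzyme of gluconeogenesis, was higher by 2-fold in Scd2f/f;CC than in Scd2f/f TAL, at 71.2, 54.2 and 136. Tdo2 was at 652, 802 and 895 and Hnf4a at 271, 229 and 213. Macrophage markers summed to 107, 428 and 343. All 11 were higher by 2-fold in Scd2f/f TAL than in untreated liver, beside 6.38% of all genes. Cd5l, at 22.9, 114 and 99.0, was the most abundant in both TAL groups, and Clec4f in untreated liver. Between the TAL groups, 2 of 11 were lower by 2-fold, beside 1.65%, Gpnmb from 8.98 to 0.638 and Trem2 from 1.80 to 0.459. Clec4f, of Kupffer cells, was at 27.3, 71.2 and 71.7, Timd4 at 1.70, 4.81 and 5.94, Marco at 0.870, 14.6 and 10.7, and Lyz2 at 24.9, 107 and 63.7.

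HSC and fibroblast markers summed to 225, 370 and 212. Dcn was the most abundant in Scd2f/f TAL, at 118, and Reln in untreated liver, at 73.0, and in Scd2f/f;CC TAL, at 71.6. Of 12 that reached a mean of 1, 6 were lower by 2-fold in Scd2f/f;CC than in Scd2f/f TAL and none was higher, beside 1.65% and 0.642% of all genes. Col1a1, the collagen gene whose promoter drives the Cre, was at 4.69, 19.6 and 4.51. Col1a2 was at 6.65, 21.7 and 6.93 and Col3a1 at 19.3, 58.6 and 21.6. Pdgfrb was at 6.08, 9.91 and 4.75 and Lum at 5.91, 9.39 and 4.24. Tagln was at 7.85, 3.79 and 1.75 and Lrat, of vitamin A storage, at 15.0, 19.0 and 16.0. The 3 collagen genes were thus highest in Scd2f/f TAL and Tagln in untreated liver. Cholangiocyte markers summed to 59.5, 55.4 and 19.8 over 8 genes, mostly Spp1, which was at 52.3, 45.1 and 14.8. Epcam at 1.97, 1.82 and 0.50 was also lower by 2-fold in Scd2f/f;CC than in Scd2f/f TAL, and Sox9 was at 3.0, 5.03 and 3.52, while Krt7 and Krt19 were under 1 in each group. Endothelial markers summed to 132, 173 and 175 over 10 genes with Stab2 the most abundant. Of these, Cdh5 and Lyve1 were higher by 2-fold in Scd2f/f TAL than in untreated liver, beside 6.38% of all genes, and none passed 2-fold between the TAL groups. Kdr was at 29.8, 34.9 and 40.2, Flt1 at 7.39, 7.31 and 8.0, and Vwf at 4.70, 4.65 and 4.52. The T and B cell list summed to 10.5, 35.2 and 26.4 over 10 genes. Most of each sum was Ptprc, at 5.82, 27.2 and 19.0. Ptprc is a gene of leukocytes in general, so this sum is not specific to T and B cells. Ighm was at 2.74, 2.84 and 3.62. The macrophage and HSC sums and that of the T and B cell list with Ptprc were highest in Scd2f/f TAL, where the Mup sum was lowest. The endothelial sums of both TAL groups were close, and the cholangiocyte sum, mostly the level of Spp1 alone, was lowest in Scd2f/f;CC TAL. The part of these cells in the Mup ratios was not tested. Scd2 itself was at 2.46, 6.47 and 1.87, lowest in the group with its deletion.

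Finally, the 8 genes closest to the members' median pair of log2 ratios, -0.68 and 0.90, were sought among 5566 genes outside the Mup family with a mean of at least 10 over the 3 groups. The measure was the Euclidean distance in the 2 ratios, which rest on 3 means. Zfp395 at 12.6, 7.43 and 12.5 was the closest, with a distance of 0.17. Papss2, a synthase of the sulfate donor PAPS, had means of 77.0, 47.3 and 78.1. Ildr2 was at 20.0, 14.2 and 24.5, the cytochrome P450 gene Cyp2c54 at 112, 76.6 and 126, and Ces3b, a carboxylesterase gene, at 207, 135 and 217. Esr1, the estrogen receptor gene, was at 16.2, 9.04 and 15.0. Lifr, the receptor for leukemia inhibitory factor, was at 386, 225 and 359, and Got1, an aminotransferase gene, at 51.8, 39.0 and 71.7.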

How the data were processed

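Polyadenylated RNA from 3 mice per group was captured with TruSeq V2 beads and sequenced by the authors on a NextSeq 500. The paper's methods do not say whether the libraries marked strand. Reads were counted per gene of Gencode M3 with the E/M step of Partek, which divides reads that fit several genes among them, and normalized to the upper quartile. The submitters' processing notes name STAR 2.6.1, Partek 6 and mm10. Litter-mates were used, and read length is not given in the sources used here. The methods give 5 months of WAD where the labels give 4.

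The deposited table holds, for 2 comparisons, the authors' p-value, FDR, ratio and signed fold change (a score derived from the ratio), none of which was used, and the deposited signal of each group, the authors' least-squares mean of normalized read counts with 3 significant digits. Whether means were taken on a log scale is not given in the sources used here. Depth is unknown.

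Log2 ratios were quotients of these means with no pseudocount. A gene counted as past the fold at a ratio of at least 2 or at most 0.5 among genes whose mean over the 2 groups was at least 1. All 38 rows of the family overlapped the gene of that name in GENCODE M21 (GRCm38). Coding sequences were aligned with MAFFT 7.526 and translated with Biopython 1.88. Members and lists were chosen with earlier results of these data known. Genes named are the 10 members, other Mup rows, the highest and lowest of each list and those past the fold where 6 or fewer, the 8 nearest by pattern, 3 neighbours on each side and Scd2. A few list members, such as Ghr, Zhx2, Rbp4, Krt7, Krt19, Trem2 and Lrat, were added after their values were seen. The ratio steps were tested on simulated data. Alternatives were pseudocounts of 1 and 10, 3 other scalings, folds of 1.5 and 3, other limits on the mean, other sums and coding length, with further sums chosen after seeing the data. Software was Python 3.11.15, NumPy 2.4.6, pandas 2.3.3 and Matplotlib 3.10.9.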

Additional observations from a re-analysis of the deposited data

How the results depend on the processing

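No paired analysis was possible because only group means were analysed, and for the same reason no mouse could be left out. Since the 3 mice of each group entered only as their mean, a value was taken as unmoved within 1.5-fold of the reported one. The number of members lower by 2-fold in Scd2f/f TAL than in untreated liver, 2, was 6 at a fold of 1.5, 1 at a fold of 3 and 1 with groups scaled to equal totals. The number higher in Scd2f/f;CC than in Scd2f/f TAL, 5, was 2 at a fold of 3, 2 with equal totals and 2 with scaling to hepatocyte markers. Against untreated liver, the 2 members higher in Scd2f/f;CC TAL became 0 at a fold of 3, and the 1 lower became 2 at a fold of 1.5, 0 at a fold of 3 and 0 with equal totals. The cause was not tested, apart from the change of limit or scale itself. Counting only protein-coding genes moved the members' share of the summed level in untreated liver from 3.68% to 6.14%. The log2 ratio of the summed members stayed below 0 for Scd2f/f TAL against untreated liver under all 9 alternatives, from -1.15 without Mup20 to -0.49 for the pool of 6 distinct rows. Between the TAL groups it was above 0 under 8 of 9, from 0.23 with scaling to hepatocyte markers to 0.97 without Mup20, and -0.04 for the pool of 6 distinct rows. Of single-gene values, 24 moved by over 1.5-fold, 21 of them levels per kb of coding sequence in place of joined exons, and no ratio past 2-fold changed sign. As values of single mice and their depth were not analysed here, no difference between these means was set against the spread between mice.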
